A study of Mus musculus with 15 samples.

Results

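The genes described here are 10 mouse genes of the NRF2 pathway: Nfe2l2, which encodes the factor NRF2 itself, and 9 redox enzyme genes known as its targets, Nqo1, Srxn1, Cbr3, Gclc, Gclm, Gsr, Txnrd1, Prdx1 and Hmox1. They were chosen by name, and all probe sets that the array's annotation ties to them were taken, 21 of 22626 in the table. Of these, 16 probe sets list only 1 gene and measure 9 of the 10 genes. The remaining 5 list Prdx1 together with the gene model Gm21399, so their values are given for that pair and enter no count of genes. Liver RNA was measured on Affymetrix arrays in 6 tumours of homozygous Mdr2-KO mice, in 6 pieces of non-tumorous liver of homozygous Mdr2-KO mice and in livers of 3 control mice heterozygous for the same knockout allele, all aged 16 months. All groups therefore carry the disrupted Mdr2 gene (symbol Abcb4, the phospholipid exporter of the bile canaliculus), the controls on 1 chromosome. Of the knockout mice, 4 gave both tumour and liver: tumours 3 and 4 came from mice 3 and 4, tumours 5-1 and 5-2 from mouse 5, and tumours 6-1 and 6-2 from mouse 6, while livers 1 and 2 have no matched tumour. The labels give neither sex nor strain. They do not describe how tumour tissue was separated from the surrounding liver.

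NRF2 is a leucine zipper transcription factor that is normally held in the cytoplasm by KEAP1 and degraded. When oxidants or electrophiles modify KEAP1, NRF2 accumulates, pairs with small MAF proteins and binds antioxidant response elements in the promoters and enhancers of genes for glutathione synthesis, thiol reduction, quinone and carbonyl reduction and heme breakdown. In liver this program is known from responses to drugs, bile acids and partial blockage of bile flow, and from tumours in which KEAP1 no longer restrains NRF2.

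Promoter windows of 300 bases, 250 before and 50 after each annotated start, were available for 7 of the 10 genes from RefSeq (assembly GRCm38.p6). The following 4 are shown because Srxn1 and Cbr3 were the members called in tumours, while Gclm and Nqo1 were not called. Capitals mark matches to TGACNNNGC, the core letters of the antioxidant response element, or to its variant TGAGNNNGC, which was added after these sequences had been seen. Both strands were searched. They lie at chr2:152105274-152105573 (plus strand) for Srxn1, chr3:122245307-122245606 (plus strand) for Gclm, chr16:93682969-93683268 (plus strand) for Cbr3 and chr8:107403156-107403455 (minus strand) for Nqo1, each printed on the strand of its gene.
Srxn1: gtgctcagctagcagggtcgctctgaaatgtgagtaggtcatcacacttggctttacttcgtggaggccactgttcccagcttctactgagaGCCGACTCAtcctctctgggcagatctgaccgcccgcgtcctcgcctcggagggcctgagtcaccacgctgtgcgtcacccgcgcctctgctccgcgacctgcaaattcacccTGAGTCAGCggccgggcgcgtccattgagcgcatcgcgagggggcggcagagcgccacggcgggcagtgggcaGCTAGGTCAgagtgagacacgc
Gclm: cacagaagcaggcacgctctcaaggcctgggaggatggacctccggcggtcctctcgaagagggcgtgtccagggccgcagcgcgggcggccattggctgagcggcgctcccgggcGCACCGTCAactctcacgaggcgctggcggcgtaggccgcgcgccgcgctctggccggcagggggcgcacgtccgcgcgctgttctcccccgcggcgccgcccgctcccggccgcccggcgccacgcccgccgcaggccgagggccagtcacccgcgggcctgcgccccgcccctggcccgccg
Cbr3: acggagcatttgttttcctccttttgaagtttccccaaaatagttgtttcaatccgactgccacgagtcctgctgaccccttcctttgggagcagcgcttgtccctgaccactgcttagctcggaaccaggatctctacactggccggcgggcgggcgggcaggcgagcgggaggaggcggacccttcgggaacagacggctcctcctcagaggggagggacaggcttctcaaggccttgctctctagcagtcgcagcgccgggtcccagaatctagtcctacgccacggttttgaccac
Nqo1: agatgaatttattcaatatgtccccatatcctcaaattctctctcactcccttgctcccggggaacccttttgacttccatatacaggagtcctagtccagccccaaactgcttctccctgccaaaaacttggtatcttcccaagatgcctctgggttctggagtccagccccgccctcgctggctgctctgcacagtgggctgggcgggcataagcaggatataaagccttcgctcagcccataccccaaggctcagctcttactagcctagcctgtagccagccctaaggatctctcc
The Srxn1 window holds 3 matches: TGAGTCAGC on the strand of the gene with its first printed base at -45, TGAGTCGGC on the opposite strand at -158, and TGACCTAGC on the opposite strand at 29, counting the annotated start as 1. The match at -45 includes TGAGTCA, the letters that AP-1 factors also recognise. The Gclm window holds TGACGGTGC on the opposite strand at -134, and the Cbr3 and Nqo1 windows hold no match. Of the 9 windows of the 7 genes (Txnrd1 has 3), 5 hold TGACNNNGC, 1 each in Nfe2l2, Srxn1, Gclm, Prdx1 and Txnrd1, against 12.4% of 32851 mouse promoter windows. The variant TGAGNNNGC is in 2 of the 9, against 17.6% of all windows. A match describes these letters only, and no binding was measured. No window was available for Gclc, Hmox1 and Gsr.

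Values are MAS5 signals on a linear scale, and log2 changes are differences of log2(signal + 9.1) with their standard error (SE) from a limma fit over all 16120 probe sets that passed a filter on low signals. All 16 single-gene probe sets of the members passed it. Each gene is represented by its brightest probe set, and a gene is called higher or lower where the Benjamini-Hochberg adjusted p was under 0.05. Abcb4 lay at 122.5 to 681.1 in tumours and 177.4 to 305.7 in non-tumorous knockout livers, against 778.9 to 1006.4 in controls. The summed signal of 8 hepatocyte marker genes was 50352 to 71272 in tumours, 63267 to 82542 in knockout livers and 79462 to 89733 in controls, and none of these markers was at 0 on any array. The 3' to 5' signal ratio of the actin control probes, a sign of RNA integrity, was 1.51 to 2.06 in tumours and 1.74 to 2.74 in knockout livers, against 2.55 to 3.37 in controls. Tumours and controls did not overlap in it, and it was entered in the fit as a covariate in an alternative, whose outcome is given beside each call. In whole tissue, fewer cells of a type and less RNA per cell cannot be told apart.

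In tumours against heterozygous livers, 2 of the 9 genes were called, both higher: Srxn1, at 3.49-fold, and Cbr3, at 4.94-fold. Among all 9528 genes tested, 3.93% were called higher and 2.92% lower in this comparison. At an unadjusted p under 0.05 there were 3 of the 9, Srxn1, Cbr3 and Txnrd1, all higher. Of all genes, 22.5% passed it in either direction and 11.7% were higher. In non-tumorous knockout livers against heterozygous livers none of the 9 genes was called by limma, with 1.53% of all genes called higher and 0.325% lower. At an unadjusted p under 0.05 there were 4 in that comparison, Nfe2l2, Srxn1 and Hmox1 higher and Gclc lower, against 15.8% of all genes in either direction. In tumours against non-tumorous knockout livers none of the 9 was called either, with 0.021% of all genes called higher and 0.115% lower. There, 3 of the 9 had an unadjusted p under 0.05, Srxn1, Nqo1 and Cbr3, all higher. Of all genes, 10.5% passed it in either direction and 4.4% were higher.

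**Figure D1:**
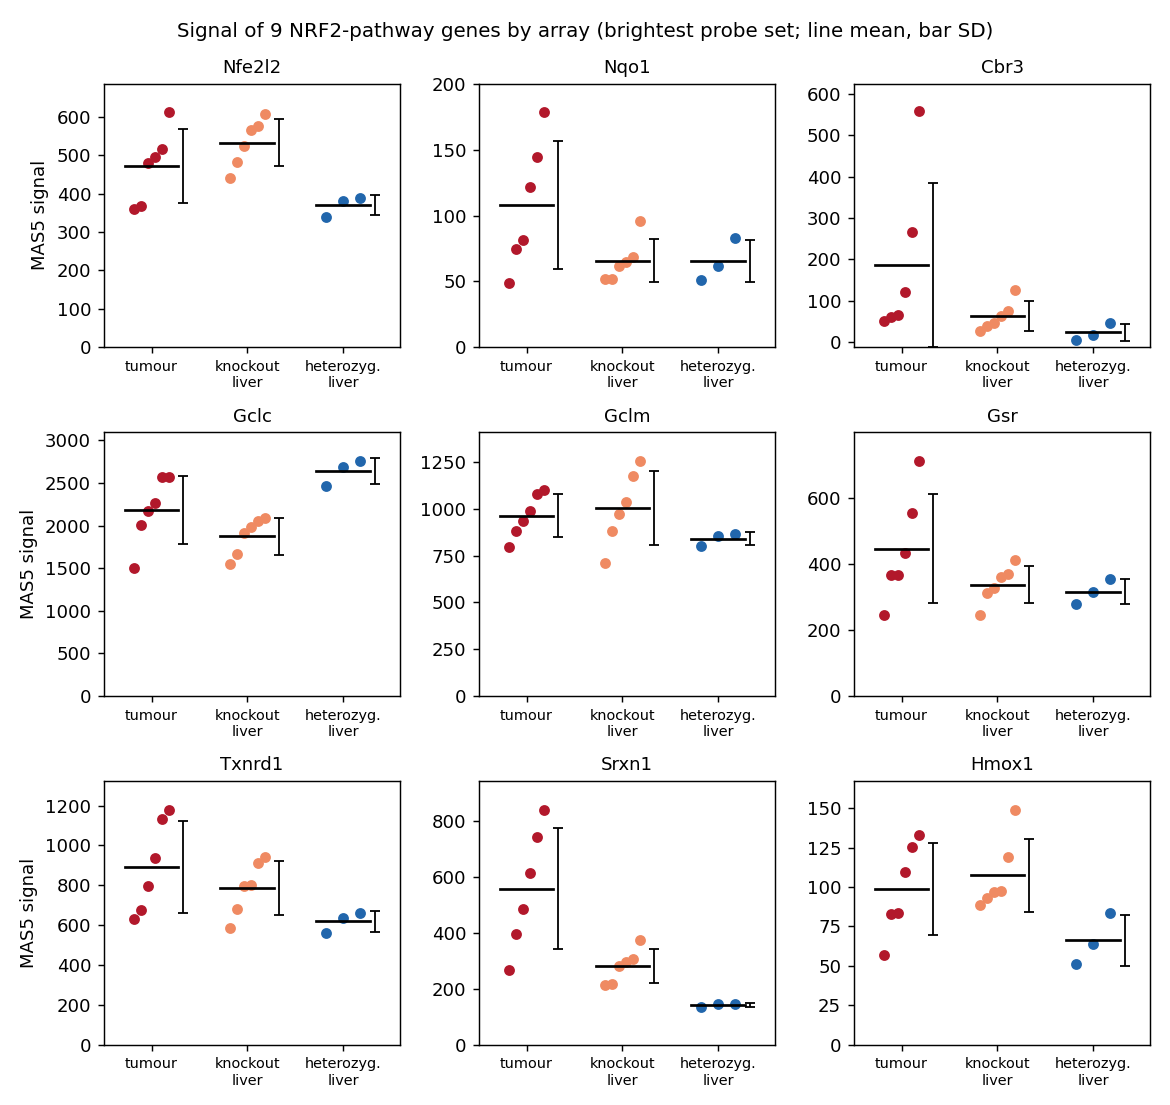
MAS5 signal (linear scale) of the brightest probe set of each of 9 NRF2-pathway genes, with a point for each array, a line at the group mean and a bar of 1 SD beside it (6 tumours, 6 non-tumorous knockout livers, 3 heterozygous livers). Axes start at 0, except for Cbr3, where the SD bar of the tumours reaches below 0. Srxn1 is above all 3 controls in every tumour and knockout liver, Gclc is below them in every knockout liver, and for Cbr3 tumour 5-1, at 558.3, is far above the other 5 tumours.

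Nfe2l2 encodes NRF2, whose amount is mainly set by protein degradation, which arrays do not measure. Its signal was 441.6, 545.8 and 607.3 (lowest, median and highest) in the 6 non-tumorous knockout livers, against 339.3, 382.2 and 389.5 in the 3 controls. All 6 knockout livers lay above all 3 controls, and 8.03% of all genes showed such separation upwards. The difference was 0.51 ± 0.18 on the log2 scale and did not pass the test (limma, adjusted p = 0.161). In tumours the signal was 359.8, 487 and 613.4. Tumours 3 and 5-2 lay below every knockout liver and tumour 5-1 above every one, and the log2 difference of tumours from knockout livers was -0.19 ± 0.14 (adjusted p = 0.713).

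Srxn1, sulfiredoxin, which restores over-oxidised peroxiredoxins, had the smallest adjusted p of the 9 genes in each of the 3 comparisons. Its brightest probe set, 1426875_s_at, read 266.0, 551 and 841.4 in tumours and 214.7, 288.9 and 375.2 in knockout livers, against 145.7, 145.9 and 135.4 in the 3 controls. Every tumour and every knockout liver was above every control, whose SD was only 6.01. Separation of knockout livers from controls upwards was seen for 8.03% of all genes. In tumours against controls Srxn1 was higher by 1.80 ± 0.28 on the log2 scale (limma, adjusted p = 0.00118), and the groups did not overlap, as for 5.34% of all genes upwards. In knockout livers against controls the log2 difference was 0.92 ± 0.28 (adjusted p = 0.110), and in tumours against knockout livers 0.89 ± 0.23 (adjusted p = 0.156), with 5 of 6 tumours above all 6 knockout livers.

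Tumour 6-1, at 266.0, lay inside the range of the knockout livers. Without it, the Srxn1 difference of tumours from knockout livers was 1.07 ± 0.20 with an adjusted p of 0.0149, and that of knockout livers from controls had an adjusted p of 0.0460. Calls over all probe sets also rose without tumour 6-1. They were 119, against 20 with it, in tumours against knockout livers, and 313, against 293, in knockout livers against controls. No other array changed the Srxn1 result of this probe set in either comparison when it was left out. The same Srxn1 calls were made with the tumours of each mouse averaged, where the differences were 0.98 ± 0.20 (adjusted p = 0.0319) and 0.92 (adjusted p = 0.0231). With averaged tumours, calls over all probe sets rose to 78 and 559 in the same 2 comparisons.

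Srxn1 has 4 probe sets, of which 3 gave like results. Probe set 1451680_at read 190.6, 420 and 708.2 in tumours and 196.5, 255 and 270.9 in knockout livers, against 73.5, 129.1 and 122.7 in controls. Probe set 1425351_at read 111.8, 133 and 214.3 in tumours and 44.2, 88.4 and 119.1 in knockout livers, against 10.6, 36.8 and 61.1 in controls, of which 2 of 3 were above the 40th percentile of their array. Tumours were above controls by 1.76 ± 0.30 in the first (limma, adjusted p = 0.00204) and 1.90 ± 0.33 in the second (adjusted p = 0.00240), both on the log2 scale. In knockout livers against controls these probe sets differed by 1.14 ± 0.30 (adjusted p = 0.0601) and 1.20 ± 0.33 (adjusted p = 0.0757). The fourth, 1419942_at, differed from these: it read 41.7, 62.7 and 77.5 in tumours and 12.6, 44.6 and 69.8 in knockout livers, against 62.0, 52.8 and 79.5 in controls, with a log2 difference of tumours from controls of -0.05 ± 0.32 and of knockout livers from controls of -0.58 ± 0.32. In tumours against knockout livers all 4 Srxn1 probe sets were above 0 and none was called, with 0.62 ± 0.25 for 1451680_at, 0.71 ± 0.27 for 1425351_at and 0.53 ± 0.26 for 1419942_at. Over the 15 arrays, log2 values of the first 3 correlated with each other at r between 0.793 and 0.924, and with 1419942_at at r between 0.0899 and 0.289. These are readings of the same RNA extracts, so they are not independent.

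The tumour call of Srxn1 held in each of the 15 fits that left out 1 array, between 1.67 and 1.99 on the log2 scale. It was lost when the actin 3' to 5' ratio entered the fit as a covariate (1.63 ± 0.48, adjusted p = 0.197), and in that ratio tumours and controls do not overlap.

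**Figure D2:**
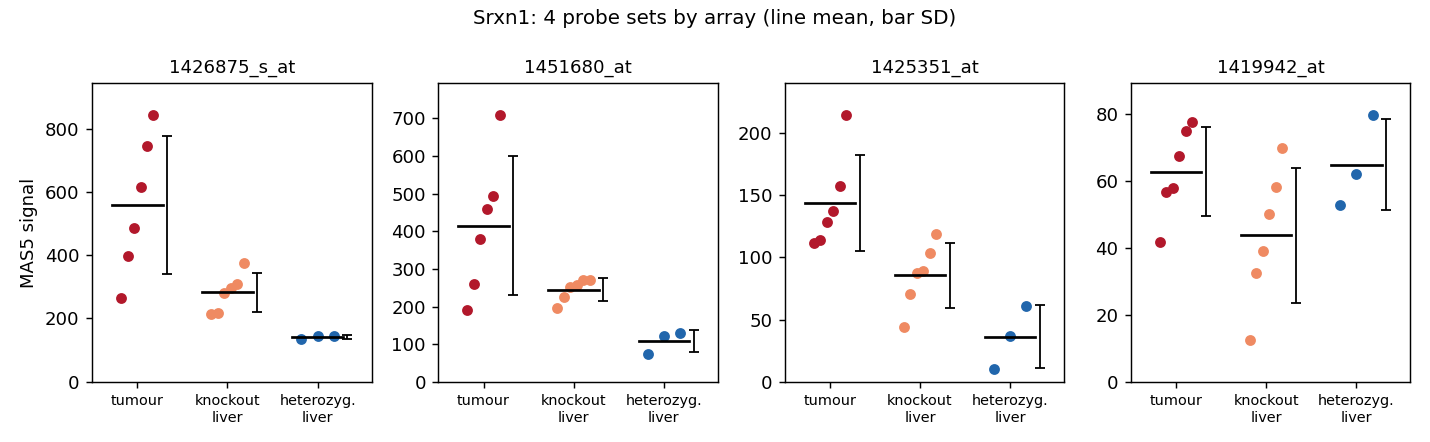
MAS5 signal (linear scale, from 0, a separate axis for each panel) of the 4 Srxn1 probe sets, with a point for each array, a line at the group mean and a bar of 1 SD. In the first 3 panels all 6 tumours lie above all 3 heterozygous livers, while in the fourth, 1419942_at, the groups overlap.

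Nqo1 and Cbr3 encode reductases of quinones and carbonyl compounds. Nqo1, NAD(P)H quinone dehydrogenase 1, is widely used as a readout of NRF2 activity. It read 49.0, 101 and 178.9 in tumours and 51.6, 63.4 and 96.0 in knockout livers, against 51.2, 83.1 and 62.0 in controls. Knockout livers and controls had nearly equal means, 65.8 ± 16.3 (SD, n = 6) and 65.4 ± 16.2 (SD, n = 3), and a log2 difference of 0.0031 ± 0.30 (limma, adjusted p = 0.998). Tumours split: 3, 5-1 and 5-2, at 144.4, 178.9 and 121.4, were above every knockout liver, tumours 6-1 and 6-2 were within their range, and tumour 4 was below it. The log2 difference of tumours from knockout livers was 0.56 ± 0.25 (adjusted p = 0.454).

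Nqo1 lies on chromosome 8 within the stretch between Ndufb7 and Itgb1, whose genes were lower in some tumours. The median of the other 266 tested genes of that stretch, as a log2 difference from the mean of the knockout livers, was -0.52 in tumour 3, -0.14 in tumour 4, -0.34 in tumour 5-1, 0.088 in tumour 5-2, -0.019 in tumour 6-1 and -0.58 in tumour 6-2. Single knockout livers lay between -0.10 and 0.073. Nqo1 on the same scale was at 1.06 in tumour 3 and 1.35 in tumour 5-1, both with a low stretch, and at 0.83 in tumour 5-2, where the stretch was not low. In tumour 6-2, with the lowest stretch, Nqo1 was at 0.19. Hmox1 and Gsr are on the same chromosome, outside that stretch.

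Cbr3, carbonyl reductase 3, read 51.6, 93.4 and 558.3 in tumours and 25.4, 54.6 and 125.8 in knockout livers, against 5.3, 17.3 and 46.7 in controls. All 6 tumours were above all 3 controls, as for 5.34% of all genes upwards. Only 1 of the 3 controls was above the 40th percentile of its array, so the size of the fold rests on signals close to background. The log2 difference of tumours from controls was 2.30 ± 0.60 (limma, adjusted p = 0.0293), that of knockout livers from controls 1.23 ± 0.60 (adjusted p = 0.340) and that of tumours from knockout livers 1.07 ± 0.50 (adjusted p = 0.482). Tumours 5-1, at 558.3, and 6-2, at 265.5, stood above every knockout liver. With no constant the Cbr3 difference of tumours from controls was 2.94, and with a constant of 43.3 it was 1.48 and no longer called (adjusted p = 0.0582). The Cbr3 call was also lost without control 1 (1.83, adjusted p = 0.169), without control 2 (2.27, adjusted p = 0.110), in a fit of tumours and controls alone (2.27, adjusted p = 0.164) and with the actin ratio as a covariate (2.00 ± 1.05, adjusted p = 0.526).

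The glutathione branch is represented by Gclc and Gclm, the catalytic and modifier subunits of glutamate-cysteine ligase, the rate-limiting enzyme of glutathione synthesis, and by Gsr, which reduces oxidised glutathione. Gclc was the only one of the 9 genes below all controls in every knockout liver: it read 1553, 1952 and 2084 in knockout livers, against 2762, 2691 and 2464 in controls. Such separation downwards was seen for 6.79% of all genes. The log2 difference was -0.50 ± 0.17 (limma, adjusted p = 0.159). Tumours read 1505, 2215 and 2573, of which 4 lay above every knockout liver, 1 (tumour 6-1) below every one and 4 below every control, and the log2 difference of tumours from controls was -0.30 ± 0.17 (adjusted p = 0.336). The second Gclc probe set, 1455959_s_at, differed in the same direction by -0.36 ± 0.23 in knockout livers against controls (adjusted p = 0.482), and correlated with the first at r = 0.734 over the 15 arrays.

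Gclm did not follow Gclc: it read 713.3, 1005 and 1258 in knockout livers, against 865.4, 802.7 and 857.8 in controls, a log2 difference of 0.23 ± 0.17 (limma, adjusted p = 0.564). In tumours Gclm read 795.3, 964 and 1100, and its SD of 0.176 among tumours on the log2 scale lay at the 4.9th percentile of all genes tested. Gsr read 246.2, 399 and 711.9 in tumours and 245.6, 342 and 411.4 in knockout livers, against 278.5, 315.2 and 353.2 in controls. Tumours 3, 4 and 6-2 were above every knockout liver for Gsr, and the log2 difference of tumours from knockout livers was 0.33 ± 0.20 (adjusted p = 0.622). The second Gsr probe set, 1421817_at, gave 0.26 ± 0.21 (adjusted p = 0.738).

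Txnrd1, cytosolic thioredoxin reductase, read 633.5, 865 and 1180 in tumours and 587.8, 800.2 and 944 in knockout livers, against 662.7, 562.0 and 636.1 in controls. Its log2 difference of tumours from controls was 0.48 ± 0.21 (limma, adjusted p = 0.182), with tumours 3 and 5-1 above every knockout liver. The probe sets 1424486_a_at and 1424487_x_at differed in the same direction, by 0.42 and 0.71, and neither was called. Probe set 1424487_x_at was close to background in the controls, where none of the 3 arrays had it above its 40th percentile. Prdx1, peroxiredoxin 1, a peroxidase whose over-oxidised form is the substrate of sulfiredoxin, was read only together with Gm21399. The brightest of those 5 probe sets, 1416000_a_at, read 3684 to 7094 in tumours and 6128 to 7648 in knockout livers, against 6286 to 7878 in controls. The 6 knockout livers lay below all 3 controls in 2 of the 5: 1437014_x_at read 410.9 to 540 in knockout livers, against 579.3 to 761.4 in controls, and 1433866_x_at read 1441 to 1662 in knockout livers, against 1676 to 2306 in controls. Their log2 differences were -0.46 ± 0.18 (limma, adjusted p = 0.229) and -0.37 ± 0.20 (adjusted p = 0.398). Such separation downwards was seen for 6.25% of all probe sets. In tumours, 1436691_x_at read 3825 to 5743, below all 3 controls at 5855 to 6608, as for 5.57% of all probe sets downwards. Its log2 difference of tumours from controls was -0.27 ± 0.15 (limma, adjusted p = 0.304). None of the 5 was called in any comparison, and the smallest adjusted p among them in tumours against controls was that of 1437014_x_at, at -0.52 ± 0.18 on the log2 scale (limma, adjusted p = 0.104).

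Hmox1, heme oxygenase 1, degrades heme and is also abundant in macrophages. It read 88.5, 97.3 and 149.1 in knockout livers, against 83.3, 51.5 and 63.6 in controls. All 6 knockout livers were above all 3 controls, as for 8.03% of all genes upwards, and the log2 difference was 0.63 ± 0.24 (limma, adjusted p = 0.209). In tumours Hmox1 read 57.0, 96.7 and 132.9, of which 3 were below every knockout liver, and the log2 difference from knockout livers was -0.14 ± 0.20 (adjusted p = 0.880). Macrophage markers are given beside it, and whether they follow Hmox1 from array to array was not tested. The summed signal of 12 of them was 1446 to 8390 in tumours and 3747 to 6067 in knockout livers, against 2595 to 2803 in controls, with none at 0 on all arrays of a group. Its median was 4994 in tumours and 4837 in knockout livers. Of the 12 markers, 2 were not above the 40th percentile on any knockout liver array, and 1 on any tumour array. Of the 11 of these that were tested, 9 were above 0 in knockout livers against controls. The 2 called higher were Cd68 (1.67, adjusted p = 0.00180) and Lyz2 (2.06, adjusted p = 0.0281), while the Kupffer cell marker Clec4f was not called (0.28, adjusted p = 0.904). Adgre1 was at 0.18 (adjusted p = 0.849), Cd5l at -0.082 (adjusted p = 0.967) and Marco at -0.64 (adjusted p = 0.664). Sums of stellate and bile duct markers also separated knockout livers from controls. The sum of 8 stellate and fibroblast markers was 1258 to 3535 in knockout livers, against 583 to 835.2 in controls, with Pdgfrb (1.51, adjusted p = 0.0271) and Lum (1.95, adjusted p = 0.0428) called. Of these 8 markers 6 were above 0, among them Lrat at 0.086 (adjusted p = 0.957). Acta2 was at -0.013 (adjusted p = 0.996) and Des at -0.65 (adjusted p = 0.538). The sum of 7 bile duct markers was 310.3 to 473.6 in knockout livers, against 147.3 to 263.1 in controls, with Cdh1 (1.97, adjusted p = 0.00409) called and Krt19 at 0.047 (adjusted p = 0.973). Cdh1 alone read 151.4 to 315.5 in knockout livers, against 35.3 to 58.9 in controls, so it made up a large part of that sum. Whether the sum separates the groups without Cdh1 was not tested. Of the 7 bile duct markers 5 were above 0, while Cldn4 was at -1.07 (adjusted p = 0.177) and Sox9 at -0.25 (adjusted p = 0.843). The part of these cell types in the Hmox1 values, and in those of Nfe2l2, Srxn1 and Gclc in the same comparison, was not tested.

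**Figure D3:**
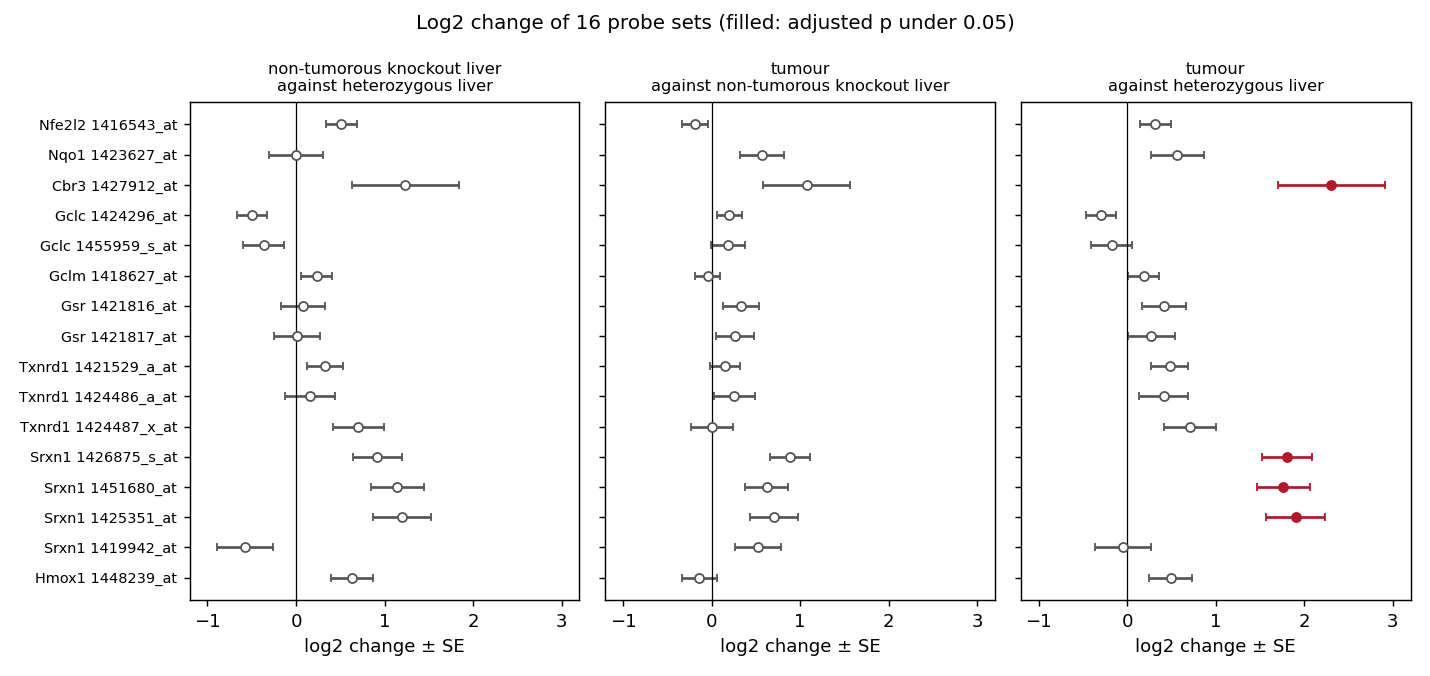
Log2 change with 1 SE (limma) of the 16 single-gene probe sets in knockout livers against heterozygous livers, tumours against knockout livers and tumours against heterozygous livers; filled points have an adjusted p under 0.05. The filled points are Cbr3 and 3 of the 4 Srxn1 probe sets, all in tumours against heterozygous livers.

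Across the 9 genes, the median log2 difference was 0.32 in knockout livers against controls, with 8 of 9 above 0, 0.20 in tumours against knockout livers, with 6 of 9 above 0, and 0.48 in tumours against controls, with 8 of 9 above 0. The medians over all genes tested were -0.019, 0.0086 and -0.021 in the same comparisons. The comparisons share samples, so their agreement is not independent. By probe set, 4 of 16 were called higher in tumours against controls, where 3.91% of all probe sets were. None of the 9 genes separated tumours from knockout livers without overlap, where 0.126% of all genes did so upwards and 0.567% downwards. The members differed in how much they varied among tumours: the log2 SD over 6 tumours was 1.29 for Cbr3 (97.5th percentile of all genes), 0.627 for Nqo1 and 0.605 for Srxn1, against a median of 0.429 over all genes.

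Each tumour was also set against the non-tumorous liver of its own mouse, with no test, since each is 1 array. Genes above or below all 6 knockout livers are named too, without the share of all genes, which was not counted for single tumours. Tumour 3 had 7 of 9 genes above its own liver, with a median log2 difference of 0.63. Srxn1, Gsr and Nqo1 were highest there, at 1.75, 1.15 and 1.11. Tumour 5-1 had 6 of 9 above, with Cbr3 at 4.04 and Nqo1 at 1.62, and its Nfe2l2, Nqo1, Cbr3, Gclc, Txnrd1 and Srxn1 were above all 6 knockout livers. Tumour 5-2, from the same mouse, had Srxn1 at 1.91 and Nqo1 at 1.09, but Cbr3 at only 0.82.

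The pair from mouse 6 also differed. Tumour 6-1 had no gene above all 6 knockout livers, 3 of 9 above its own liver and a median of -0.15, with Cbr3 at -0.85 and Srxn1 at -0.15. Tumour 6-2 had 4 genes above all knockout livers, Cbr3, Gclc, Gsr and Srxn1, with Gsr at 1.11 and Cbr3 at 1.02. Tumour 4 had 2 above all knockout livers, Gsr and Srxn1, and 2 below them, Nqo1 and Hmox1. Tumours 3 and 5-2 had 5 and 3 genes above all knockout livers. Below all of them were also Nfe2l2 and Hmox1 in tumour 3, Hmox1 in 5-1, Nfe2l2 in 5-2 and Gclc in 6-1. The share of all genes outside the range of the knockout livers was not counted for single tumours. The median log2 SD over all genes was 0.429 among tumours and 0.289 among knockout livers. Srxn1 was above its own liver in 5 of 6 tumours, and Hmox1 in 1 of 6.

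**Figure D4:**
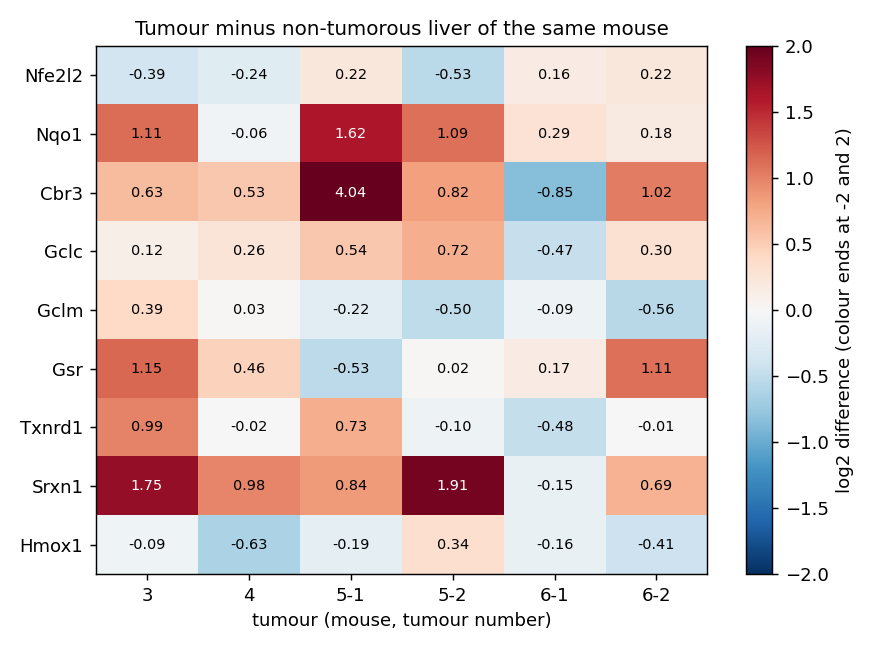
Log2 difference of each tumour from the non-tumorous liver of the same mouse for 9 NRF2-pathway genes, 1 column for each tumour; the colour scale ends at -2 and 2. Srxn1 is above 0 in 5 of 6 tumours, tumour 6-1 has 3 of 9 genes above 0, and the highest value is Cbr3 in tumour 5-1 at 4.04.

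As a description of likeness, log2 values of the other members were correlated with those of Nqo1 over the 15 arrays, which share 3 groups and 9 mice. The correlation was highest for Cbr3 (r = 0.584), Txnrd1 (0.512) and Srxn1 (0.503), and lowest for Gsr (0.0867), Gclm (0.0541) and Nfe2l2 (0.016). Among the tested genes outside the members, the 5 most like Nqo1 were Capza1 (r = 0.858), Clptm1l (0.854), Cacfd1 (0.847), Pla1a (0.844) and Eps8l2 (0.838). These are Pearson correlations, and the rank correlations (Spearman) of the same 5 were lower, at 0.789, 0.779, 0.575, 0.636 and 0.546.

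Beyond the members, 7 lists of other NRF2-pathway and redox genes held 60 tested genes. In tumours against controls 4 of them were called higher and 3 lower, 11.7% of the 60, against 6.84% of all genes, with a median log2 difference of -0.082. In knockout livers against controls 1 was higher and 1 lower, 3.33% of the 60 against 1.86% of all genes, and in tumours against knockout livers none was called, against 0.136% of all genes. No gene was called in any comparison among the 11 regulators and partners of NRF2, the 10 genes of the thioredoxin and peroxiredoxin system and the 6 genes of heme and iron handling. Keap1, the inhibitor of NRF2, differed by -0.19 ± 0.18 between tumours and controls (limma, adjusted p = 0.580), and Sqstm1, which encodes the KEAP1-binding protein p62, by 0.43 ± 0.20 (adjusted p = 0.226). Txn1, the thioredoxin that Txnrd1 reduces, differed by 0.18 ± 0.19 (adjusted p = 0.632) and Fth1, the ferritin heavy chain, by 0.29 (adjusted p = 0.402) in the same comparison.

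Cbr1, the neighbour of Cbr3 on chromosome 16 with no protein-coding gene between them and a reductase of the same family, was higher in tumours. It read 1388 ± 641 in tumours and 552 ± 153 in knockout livers (SD, n = 6 each), against 428 ± 70.1 in controls (SD, n = 3). The log2 difference was 1.55 ± 0.32 from controls (limma, adjusted p = 0.00751) and 1.22 ± 0.26 from knockout livers (adjusted p = 0.0846). Its call was lost without control 1 (adjusted p = 0.0505) and in a fit of tumours and controls alone (1.57 ± 0.37, adjusted p = 0.0623).

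Gpx4, which reduces lipid peroxides with glutathione, was higher in both knockout tissues. It read 4663 ± 1602 in tumours and 3113 ± 329 in knockout livers (SD, n = 6 each), against 1605 ± 250 in controls (SD, n = 3), with log2 differences from controls of 1.47 ± 0.23 in tumours (limma, adjusted p = 0.00128) and 0.96 ± 0.23 in knockout livers (adjusted p = 0.0428). The tumour call of Gpx4 held in 15 of 15 fits that left out 1 array, and its knockout liver call in 6 of 15, since leaving out any knockout liver or control ended it (adjusted p up to 0.199). That knockout liver call of Gpx4 was also lost with the constant of 43.3 (adjusted p = 0.0516), with no filter (0.0624), after median centring (0.0569) and with the actin ratio as a covariate (0.92 ± 0.33, adjusted p = 0.295). The second Gpx4 probe set gave 1.71 ± 0.31 in tumours (adjusted p = 0.00294) and 0.89 ± 0.31 in knockout livers (adjusted p = 0.162). Tkt, transketolase of the pentose phosphate pathway that supplies NADPH, was higher in tumours by 1.15 ± 0.26 (adjusted p = 0.0140), and the aldehyde dehydrogenase gene Aldh1a7 by 0.88 ± 0.23 (adjusted p = 0.0313). The Tkt call was lost without control 1 or 3, with adjusted p up to 0.0958, and the Aldh1a7 call without any of the 3 controls or tumour 5-2, with adjusted p up to 0.159. Both were lost in a fit of tumours and controls alone, Tkt at 1.17 (adjusted p = 0.0894) and Aldh1a7 at 0.89 (adjusted p = 0.184), and Aldh1a7 also after median centring (adjusted p = 0.0673).

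Lower in tumours than in controls were Sod1, the cytosolic superoxide dismutase, and the glyoxalase genes Hagh and Glo1. Sod1 read 1301 ± 181 in tumours and 1315 ± 169 in knockout livers (SD, n = 6 each), against 2123 ± 127 in controls (SD, n = 3). Its log2 difference from controls was -0.71 ± 0.16 in tumours (limma, adjusted p = 0.0111) and -0.70 ± 0.16 in knockout livers (adjusted p = 0.0289). Hagh differed by -0.91 ± 0.18 (adjusted p = 0.00523) and Glo1 by -0.90 ± 0.26 (adjusted p = 0.0477). The Hagh call held in 15 of 15 fits without 1 array but was lost in a fit of tumours and controls alone (-0.89 ± 0.20, adjusted p = 0.0558). The other Hagh probe sets gave -0.54 ± 0.17 (adjusted p = 0.0668) and -0.59 ± 0.19 (adjusted p = 0.0691) and were not called. The tumour call of Sod1 was lost without control 2 or 3 (adjusted p up to 0.0685) and in the fit of tumours and controls alone (0.0826). Its knockout liver call was lost without any control or any of knockout livers 1 to 4 (up to 0.144), after median centring (0.0659) and with the actin ratio as a covariate (-0.45 ± 0.21, adjusted p = 0.428). The second, dimmer Sod1 probe set gave 0.14 ± 0.25 in tumours against controls (adjusted p = 0.803). The Glo1 call held in 4 of those 15 fits (up to 0.146), only in those without tumour 4, 5-1, 6-1 or 6-2, and was also lost in the fit of tumours and controls alone (adjusted p = 0.202). With no constant, with no filter, after quantile normalization and after median centring it was lost too, and 9 of 26 alternatives kept it. The other Glo1 probe sets gave -0.74 ± 0.19 (limma, adjusted p = 0.0305) and -0.69 ± 0.21 (adjusted p = 0.0548), the latter not called. Every one of the 7 tumour calls in these lists was lost with the actin ratio as a covariate, a fit with wider errors. The differences then were 1.42 ± 0.40 for Gpx4, 1.30 ± 0.56 for Cbr1, 1.85 ± 0.41 for Tkt, 0.99 ± 0.40 for Aldh1a7, -0.69 ± 0.45 for Glo1, -0.50 ± 0.29 for Hagh and -0.37 ± 0.25 for Sod1.

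**Figure D5:**
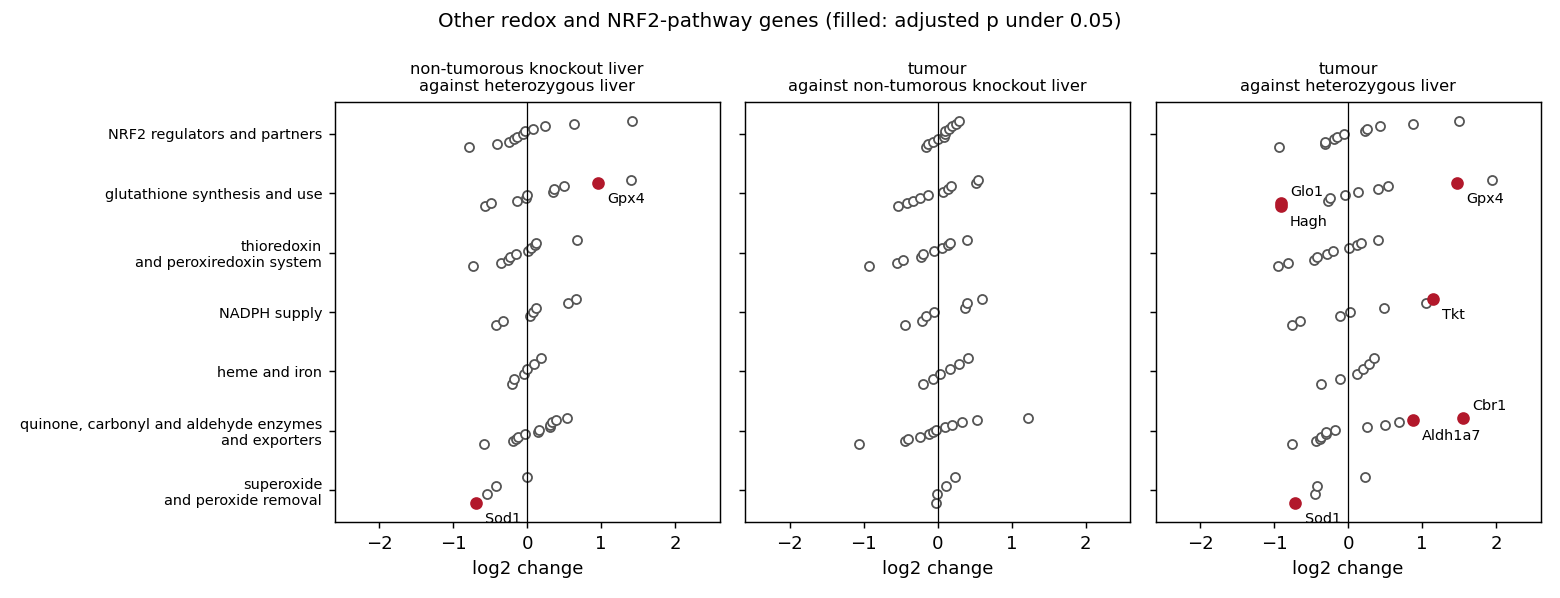
Log2 change (limma) of 60 tested genes of 7 NRF2-pathway and redox lists, 1 row for each list and 1 point for each gene, in the 3 comparisons; filled points have an adjusted p under 0.05 and are named. Gpx4 is higher and Sod1 lower in knockout livers and in tumours against heterozygous livers, and no point is filled in tumours against knockout livers.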

How the data were processed

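The authors deposited intensity signals per probe set made with MAS5, per the submitters' processing notes (version and settings not given in the sources used here); the 2%-trimmed mean is close to 150.1 on all 15 arrays. The series text names a larger array design than the 22690 probe sets in the table, of which 64 controls were left out. Of the rest, 20380 list 1 gene, 691 several and 1555 none. From log2(signal + 9.1), the 20th percentile of all signals, probe sets above the 40th percentile of their array on at least 3 arrays were kept, 16120 in all. All arrays were fitted with limma 3.58.1 (statmod 1.5.0, R 4.3.3; lmFit, eBayes with trend), the animal as a random block (duplicateCorrelation, -0.0128), with Benjamini-Hochberg adjustment over all probe sets and 0.05 as threshold. The fit was tested on simulated data. The block rests on the labels: log2 deviations from group means of a tumour and the liver of its mouse correlated at -0.156 to 0.0853. In lists, genes called in a comparison were named, and otherwise the brightest gene. Fold changes use log2(signal + 9.1) and understate those of dim genes. Members and lists were chosen with earlier results of these data known. The number of arrays limits the precision, and with a block correlation so near 0 the tumours of a mouse count almost as separate animals. No more than 121 signals were equal between any 2 arrays. Alternatives covered the constant, the filter, the normalization, the block, averaged tumours, single comparisons, 1 probe set per gene, the actin ratio and single arrays.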

Additional observations from a re-analysis of the deposited data

Results flagged for a closer look

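Nqo1 in non-tumorous knockout liver 1, at 96.0, stood apart from the other 5 knockout livers, which lay between 51.6 and 68.2. Its gap to the nearest of them was 0.626 of the whole range of the group. It was the only such case among 32 groups of values examined, and chance alone marks about 1 in 20 groups. Without knockout liver 1 the Nqo1 log2 difference of tumours from knockout livers was 0.67 ± 0.26 (limma, adjusted p = 0.397).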

How the results depend on the processing

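Of the 9 genes, 0 were called in knockout livers against heterozygous livers, 0 in tumours against knockout livers and 2 in tumours against heterozygous livers. With the tumours of a mouse averaged, the first 2 counts became 1 and 1, both Srxn1, while the counts over all probe sets rose from 293 to 559 and from 20 to 78. In a fit of the compared groups alone the member counts were 3 (Srxn1, Nfe2l2 and Gclc) in knockout livers and 1 (Srxn1) in tumours against heterozygous livers. Over all probe sets that fit called 1498 in knockout livers, against 293 in the main fit, and 224 in tumours, against 1031. With the larger constant of 43.3 the tumour count against heterozygous livers was 1, and with the actin ratio as a covariate it was 0. Leaving out 1 array gave 0 to 1, 0 to 1 and 1 to 2. With no replicate block the counts stayed at 0, 0 and 2, and with the mouse as a fixed replicate block over the 4 matched mice 0 members and 0 of all probe sets were called by limma, with 1205 probe sets at an unadjusted p under 0.05. Among the values of single member probe sets under all alternatives, 1215 stayed on their side of the threshold (31 of these, never called, changed sign), 14 became called, 8 lost their call and 0 reversed.

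Counts over all probe sets depended more on the fit. In knockout livers against heterozygous livers 293 were called, against 559 with averaged tumours, 1498 in the groups alone, 162 with 1 probe set per gene, 38 with the actin ratio and 73 to 477 without 1 array. In tumours against knockout livers 20 were called, against 4 with no constant, 11 with the larger constant, 13 after quantile normalization, 78 with averaged tumours, 0 in the groups alone, 13 with 1 probe set per gene, 0 with the actin ratio and 0 to 119 without 1 array. In tumours against heterozygous livers 1031 were called, against 224 in the groups alone, 664 with 1 probe set per gene, 44 with the actin ratio and 380 to 1204 without 1 array. Fits with fewer samples or fewer probe sets differ by construction, and for the other alternatives the cause was not tested. Cbr3 is limited by signals close to background in the controls.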
